A study of Mus musculus with 24 samples.

Results

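The Z-disc anchors the thin filaments of neighbouring sarcomeres and is also a place where muscle cells sense load. The 10 genes described here encode proteins of this structure and of its response to stretch. They are the alpha-actinins Actn2 and Actn3, which cross-link actin, the calsarcins Myoz1 and Myoz2, and the PDZ-LIM protein Ldb3 (also called ZASP or Cypher). The others are telethonin (Tcap), the muscle LIM protein (Csrp3), the ankyrin repeat proteins Ankrd1 and Ankrd2, and the small heat shock protein Cryab. They were taken by name from a count table of 14693 genes, and all 10 were present and passed the filter on low counts, as did 12994 genes in all.

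The cells were C2C12, an established line of mouse myoblasts that fuse into myotubes when serum is lowered. They were wild type, and the medium was changed from 10% fetal bovine serum to 2% horse serum to start differentiation. During differentiation the cells received vehicle, albumin-coupled linoleic acid (LA, a polyunsaturated fatty acid) at 100 µM, or 10 ng/mL recombinant mouse ANGPTL4, a secreted inhibitor of lipoprotein lipase. RNA was collected at day 2 or day 6, with 4 libraries for each of the 6 groups, from a single cell line. The labels do not say whether the 4 libraries of a group came from separate cultures, so p-values measure the spread between these libraries, which may be technical.

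As background, telethonin caps the ends of titin at the Z-disc, calsarcins tether calcineurin to alpha-actinin, and Ldb3 binds alpha-actinin through its PDZ domain. Ankrd1, Ankrd2 and Ankrd23 form the muscle ankyrin repeat family, whose transcripts are known to respond to stretch or injury of muscle. Cryab is a chaperone that binds desmin and titin under stress.

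Library totals ran from 6100684 to 25049912 counts, and the 10 genes took 0.170% to 0.280% of the counts of a library. Levels are given in CPM, the share of a library's counts on a common scale of library totals, corrected by TMM factors. Changes are given as log2 fold changes (log2FC), with standard errors (SE), from edgeR's quasi-likelihood test, and a gene was called at an adjusted p under 0.05. Day 2 LA replicate 3 and day 6 ANGPTL4 replicate 1 lay farthest from their groups on the first pair of principal components, and calls on members that were lost without them are given with both values. On component 2, day 2 LA replicate 3 was at -19.3 and the other day 2 LA libraries were at 1.32 to 4.07. Day 2 ANGPTL4 replicates 1 to 3 were at -19.7 to -15.2, and replicate 4 was at -4.61. Day 2 LA replicate 3 thus lay among the ANGPTL4 libraries there, and the reason was not tested. The libraries hold reads from transcript ends, so levels are compared between groups for one gene and not between genes.

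Of the 10 genes, 6 had an entry among RefSeq promoter sequences (GRCm38.p6), in 8 windows. The 250 bases upstream of the start are shown for the genes whose windows held an M-CAT, MEF2 or CArG motif, and for Ankrd2, whose course differed from that of its relative Ankrd1. Capitals mark the E-box (CANNTG), the M-CAT motif of TEAD factors (CATTCC), the MEF2 motif and the CArG box of SRF, on both strands. The Ldb3 window is that of the more upstream of its 2 starts. The windows lie at chr19:36119845-36120094 (minus strand) for Ankrd1, chr19:42035777-42036026 (plus strand) for Ankrd2, chr3:123034988-123035237 (minus strand) for Myoz2 and chr14:34588682-34588931 (minus strand) for Ldb3.
Ankrd1: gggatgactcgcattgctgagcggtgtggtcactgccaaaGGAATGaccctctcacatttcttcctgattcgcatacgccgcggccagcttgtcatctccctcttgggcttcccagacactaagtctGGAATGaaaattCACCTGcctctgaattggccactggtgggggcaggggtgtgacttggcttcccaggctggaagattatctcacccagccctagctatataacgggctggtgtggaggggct
Ankrd2: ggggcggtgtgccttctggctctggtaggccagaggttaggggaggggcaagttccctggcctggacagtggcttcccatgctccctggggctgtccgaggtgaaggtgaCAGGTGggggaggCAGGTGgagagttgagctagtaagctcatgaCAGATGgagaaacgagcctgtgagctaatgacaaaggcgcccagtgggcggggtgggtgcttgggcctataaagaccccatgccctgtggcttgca
Myoz2: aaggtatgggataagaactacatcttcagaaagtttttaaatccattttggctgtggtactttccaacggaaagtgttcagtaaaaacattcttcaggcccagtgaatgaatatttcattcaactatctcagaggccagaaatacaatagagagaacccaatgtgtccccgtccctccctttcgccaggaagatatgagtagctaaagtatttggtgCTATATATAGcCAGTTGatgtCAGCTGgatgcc
Ldb3: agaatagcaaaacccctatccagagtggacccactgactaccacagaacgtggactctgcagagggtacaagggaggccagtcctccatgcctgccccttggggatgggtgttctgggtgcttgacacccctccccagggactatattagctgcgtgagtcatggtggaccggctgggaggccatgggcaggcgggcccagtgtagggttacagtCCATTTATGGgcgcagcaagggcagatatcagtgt

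The Ankrd1 window held M-CAT matches at -210 and -123 from the start, both on the other strand, and no other member's window held one. Of 32851 mouse windows of this length, 12.6% held an M-CAT match. The Myoz2 window held a MEF2 match at -33, where the same letters also read as a TATA box, and 2.92% of windows held a MEF2 match. Both Ldb3 windows held the same CArG box, which 1.47% of windows held. E-boxes were found in windows of 5 members (Actn2, Ankrd1, Ankrd2, Csrp3 and Myoz2), and 66.2% of all windows held one. These matches describe letters and were not tested for binding.

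Differentiation with vehicle alone raised 9 of the 10 transcripts between day 2 and day 6 and lowered 1, Ankrd2. In this comparison 45.6% of all genes tested were called, 25.2% higher and 20.5% lower. The median log2FC of the members was 0.82, against 0.02 over all genes. The groups did not overlap for the 9 that rose, as was so for 40.2% of all genes.

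Among the proteins that bind titin or alpha-actinin, Tcap and Myoz1 had the largest fold changes of the 10 members. The Tcap vehicle libraries held 14.4, 15.7, 15.6 and 12.3 CPM at day 2 and 67.5, 68.6, 64.1 and 71.3 CPM at day 6. Every day 6 library was thus far above every day 2 library, with a log2FC of 2.22 ± 0.10 (SE, n = 4 per group, adjusted p = 4.83e-17 by edgeR). Myoz1, the calsarcin of fast fibres, rose from a low level (11 to 100 counts per library over all 24 libraries), from 1.39 ± 0.40 CPM (SD), to 6.97 ± 1.27 CPM (log2FC 2.34 ± 0.21 SE). Myoz2, the calsarcin of slow and cardiac muscle, rose from 55.3 ± 3.89 CPM to 115.9 ± 3.78 CPM (log2FC 1.06 ± 0.06 SE). Ldb3, which holds calsarcins and alpha-actinin together, rose less, from 191.3 ± 7.47 CPM to 263.5 ± 5.87 CPM (log2FC 0.46 ± 0.05 SE).

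Both alpha-actinins rose with differentiation, but by different amounts. Actn2, the alpha-actinin of all fibre types, went from 148.99 to 161.9 CPM at day 2 to between 247.1 and 307.2 CPM at day 6 (log2FC 0.80 ± 0.07 SE). Actn3, the form of fast glycolytic fibres, went from between 550.1 and 594.5 CPM to between 676.2 and 751.5 CPM (log2FC 0.35 ± 0.05 SE). The log2 ratio of Actn3 to Actn2 counts within a library was 1.87 ± 0.02 (SD, n = 4) at day 2 and 1.42 ± 0.12 at day 6, with no overlap between the groups. This ratio depends on the transcript ends counted, so only its change between groups can be read.

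The stretch-responsive members went in opposite directions. Ankrd1 held 443.8, 432.9, 447.2 and 426.0 CPM in the day 2 vehicle libraries and 803.4, 779.5, 751.8 and 791.9 CPM at day 6. It rose with a log2FC of 0.84 ± 0.05 (SE, adjusted p = 1.60e-15 by edgeR). Ankrd2 held 45.0, 50.6, 53.0 and 58.5 CPM at day 2 and 44.8, 45.6, 39.3 and 34.5 CPM at day 6. Its log2FC was -0.33 ± 0.12 (SE, adjusted p = 0.0295 by edgeR), with 1 of the day 6 libraries just above the lowest day 2 library. The call on Ankrd2 was lost when day 2 vehicle replicate 4, day 6 vehicle replicate 3 or day 6 vehicle replicate 4 was left out, with adjusted p up to 0.107. The third family member, Ankrd23, rose from 80.4 to 164.0 CPM (log2FC 1.03 ± 0.06 SE).

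Csrp3, a LIM protein linked to mechanical sensing at the Z-disc, rose from 21.0 ± 3.93 CPM (SD, n = 4) to 38.6 ± 3.20 CPM (log2FC 0.88 ± 0.09 SE). Cryab rose from 290.9 ± 24.6 CPM to 376.8 ± 22.2 CPM (log2FC 0.37 ± 0.06 SE). In the mouse annotation the gene model of Cryab overlaps that of Hspb2, a small heat shock protein on the opposite strand, over exons. The counting setting for strand was not stated, so the values of both genes are uncertain.

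**Figure D1:**
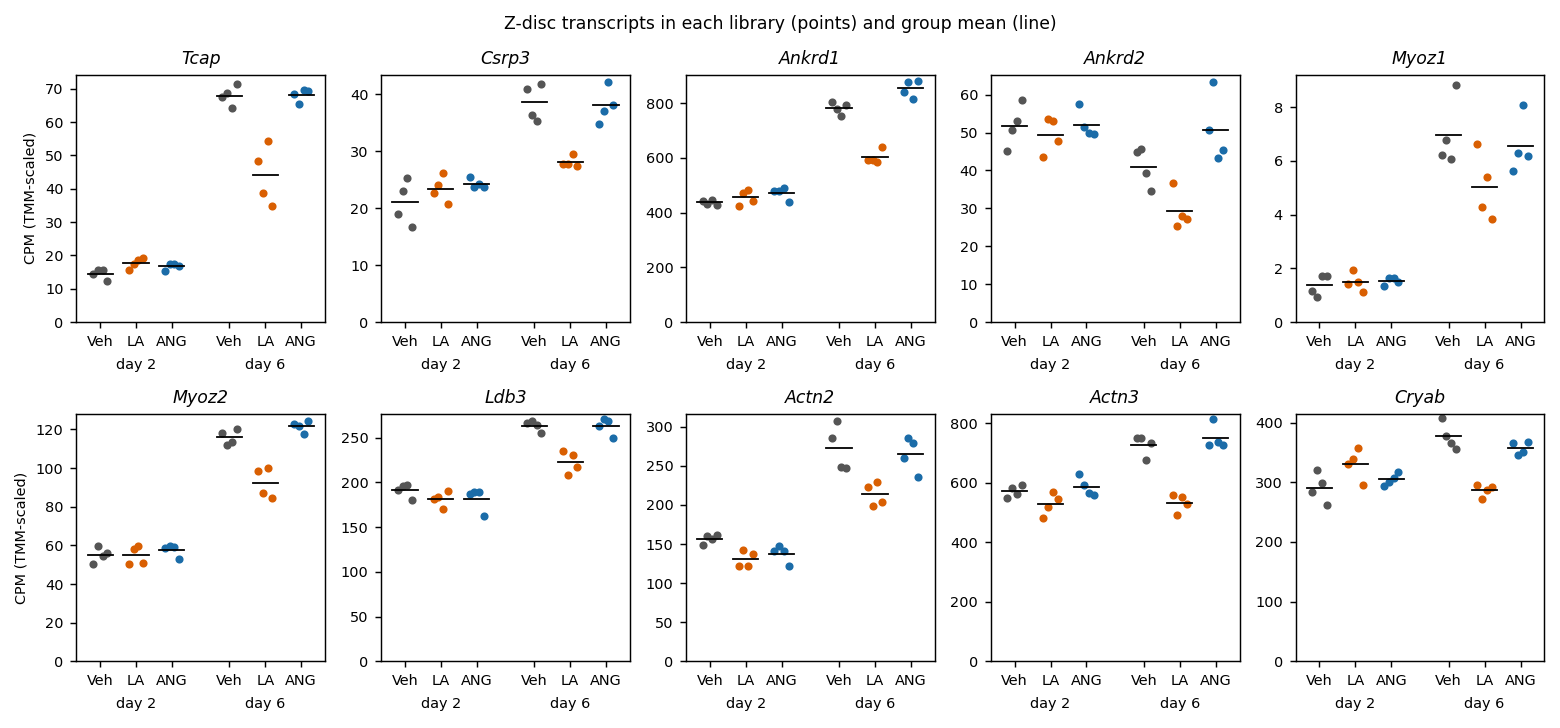
Level of each of the 10 Z-disc transcripts in TMM-scaled CPM (y axis, from 0) in every library (points) of the 6 groups (x axis: vehicle, LA and ANGPTL4 at day 2 and day 6), with the group mean as a line. Tcap in vehicle libraries lies between 12.3 and 15.7 CPM at day 2 and between 64.1 and 71.3 CPM at day 6, while at day 6 the LA libraries lie lower, between 34.7 and 54.3 CPM.

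The question of the study was which genes respond to LA and to ANGPTL4. At day 6, LA lowered 9 of the 10 Z-disc transcripts relative to vehicle, where 17.2% of all genes were called and 9.38% were called lower. The remaining member, Myoz1, had a log2FC of -0.43 ± 0.17 (SE) that did not pass (adjusted p = 0.0732 by edgeR). Its LA libraries held 6.63, 4.29, 5.39 and 3.84 CPM and overlapped the vehicle range of 6.07 to 8.82 CPM. The median log2FC of the members was -0.41, against -0.01 over all genes. For 8 members every LA library was below every vehicle library, which was so in one direction or the other for 22.7% of all genes.

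Tcap had the largest log2FC of the members at day 6. It held 48.4, 38.8, 54.3 and 34.7 CPM in the LA libraries, against 64.1 to 71.3 CPM with vehicle. The LA libraries varied more among themselves than any other group of Tcap, with a coefficient of variation of 20.3%, yet none reached the vehicle range. The log2FC was -0.62 ± 0.09 (SE, adjusted p = 5.04e-06 by edgeR), and it ran from -0.71 to -0.52 over the alternatives tried. Csrp3 held 27.8, 27.8, 29.5 and 27.5 CPM with LA and between 35.4 and 41.8 CPM with vehicle (log2FC -0.46 ± 0.09 SE).

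In the ankyrin repeat family, LA lowered every member. Ankrd1 held 593.5, 592.4, 583.5 and 639.2 CPM at day 6 with LA, all below the lowest vehicle library at 751.8 CPM (log2FC -0.38 ± 0.05 SE, adjusted p = 3.93e-07 by edgeR). Ankrd2 held 36.7, 25.5, 28.0 and 27.1 CPM with LA, and the highest of these lay above the lowest vehicle library at 34.5 CPM. Its log2FC was -0.47 ± 0.13 (SE, adjusted p = 0.0132 by edgeR), and leaving out vehicle replicate 1 or 2, or LA replicate 2 or 4, of day 6 ended the call (adjusted p up to 0.0664). Ankrd23 fell from 164.0 to 107.7 CPM (log2FC -0.61 ± 0.06 SE).

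The structural members fell as well. Actn3 went from 728.2 ± 35.6 CPM (SD, n = 4) with vehicle to 534.1 ± 30.9 CPM with LA (log2FC -0.45 ± 0.05 SE). Actn2 went from 272.2 ± 29.3 to 213.9 ± 14.96 CPM (log2FC -0.35 ± 0.07 SE). The ratio of the pair was 1.32 ± 0.04 (SD) on the log2 scale with LA, within the range of 1.29 to 1.57 seen with vehicle apart from 1 library at 1.27. Myoz2 (log2FC -0.33 ± 0.06 SE) and Ldb3 (log2FC -0.24 ± 0.05 SE) also fell, with 84.4 to 99.8 CPM for Myoz2 and 208.7 to 235.1 CPM for Ldb3 in the LA libraries. Cryab fell from between 355.9 and 407.3 CPM to between 272.5 and 295.6 CPM (log2FC -0.39 ± 0.06 SE), and Hspb2, whose gene overlaps it, fell from 13.3 to 9.35 CPM (log2FC -0.52 ± 0.17 SE). Leaving out any 1 of 5 single libraries ended the call on Hspb2. As the strand setting was not stated, reads of Cryab and Hspb2 may mix, so their falls may not be separate.

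With ANGPTL4 at day 6, none of the 10 members was called against vehicle by edgeR, limma-voom or DESeq2, and 2 (Ankrd1 and Ankrd2) had an unadjusted p under 0.05 in edgeR. Here 0.0231% of all genes were called, which is 3 genes. Ankrd1 held 841.6, 876.2, 815.9 and 881.4 CPM, all above the highest vehicle library at 803.4 CPM (log2FC 0.13 ± 0.05 SE, adjusted p = 0.252 by edgeR). Groups did not overlap for 8.24% of all genes in this comparison. Ankrd2 held 50.6, 63.4, 43.3 and 45.4 CPM, overlapping vehicle (log2FC 0.30 ± 0.13 SE, adjusted p = 0.362 by edgeR). The other 8 members had a log2FC between -0.08 (Cryab, Myoz1) and 0.07 (Myoz2).

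Set directly against ANGPTL4 at day 6, LA gave lower levels of 9 members, where 13.9% of all genes were called and 7.32% were called lower. These 9 did not overlap between the groups, as was so for 19.2% of all genes. Ankrd2 differed most (log2FC -0.77 ± 0.13 SE, adjusted p = 2.35e-04 by edgeR), followed by Tcap (-0.63 ± 0.09 SE), Ankrd1 (-0.50 ± 0.05 SE) and Actn3 (-0.49 ± 0.05 SE). Myoz1 did not pass (log2FC -0.36 ± 0.18 SE, adjusted p = 0.205 by edgeR). This comparison uses the same LA libraries as that against vehicle.

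**Figure D2:**
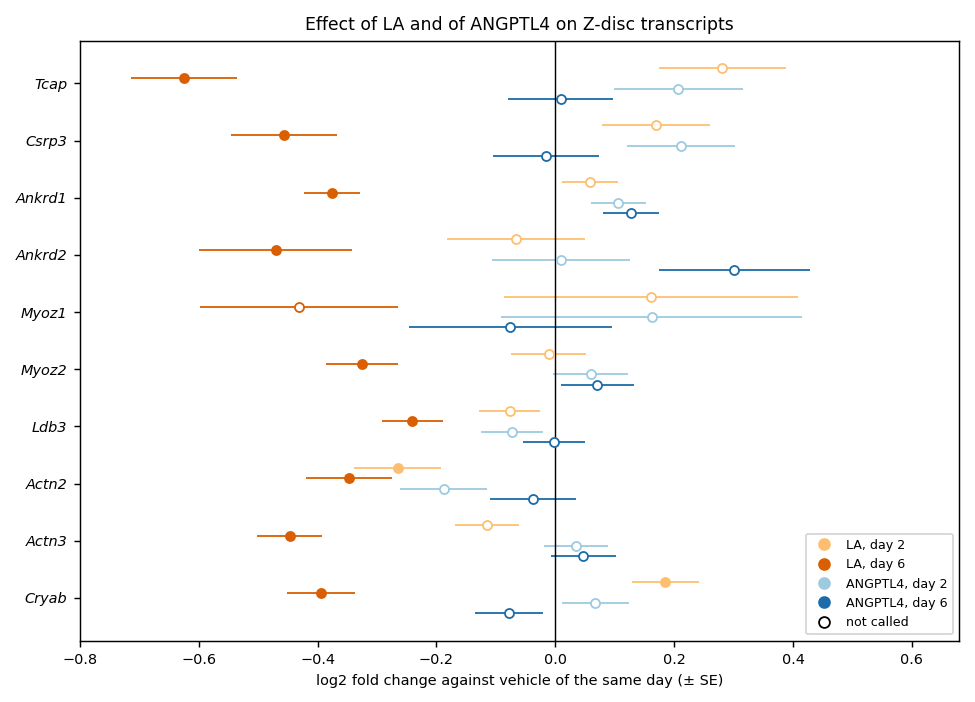
Log2 fold change of each Z-disc transcript against vehicle of the same day (x axis, ± SE) for LA and ANGPTL4 at both days, with filled points for genes called at an adjusted p under 0.05 and open points for the rest. All LA day 6 points lie between -0.62 (Tcap) and -0.24 (Ldb3), and no ANGPTL4 point is filled.

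Other genes moved with the members at day 6 under LA. The counts of markers lower or higher are of called genes, beside 17.2% of all genes called and 9.38% called lower. Of 7 markers of differentiated skeletal muscle (Myog, Mymk, Ckm, Acta1, Myh3, Tnnt3 and Des), all 7 were lower with LA, and their summed level was 13447 to 14136 CPM with vehicle and 9554 to 10576 CPM with LA. Fast fibre markers were lower in 7 of 8 cases and slow fibre markers in 6 of the 6 tested. Of 6 fibroblast markers, 5 were in the table (Thy1 was not), 4 of them were higher with LA, and their sum went from between 7991 and 9029 CPM to between 10068 and 11862 CPM. Most of that sum was Col3a1, with a mean of 6961 CPM with vehicle and 9433 CPM with LA. The next largest, Col1a1, was not called (log2FC -0.11). Of 6 markers of myoblasts and reserve cells 3 were higher and 2 lower. Of 4 cardiac markers tested 2 were lower, and the sum of 5 smooth muscle markers was 1919 to 2223 CPM with vehicle and 1969 to 2141 CPM with LA. Of 5 adipocyte markers only Lpl was in the table, at 3.77 to 8.34 CPM with vehicle and 26.0 to 47.7 CPM with LA. The part of these shifts in the lower Z-disc transcripts was not tested, and in such bulk RNA fewer myotubes and less of these transcripts per myotube cannot be told apart.

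The pathway around the members was followed with lists of related genes. Of 22 other Z-disc structural genes 21 were in the table. With vehicle, 15 of these rose from day 2 to day 6 and none fell, led by myotilin (Myot, log2FC 2.87 ± 0.11 SE, 6.83 to 50.2 CPM), Xirp2 (2.85 ± 0.33 SE) and Smpx (1.26 ± 0.07 SE). In that course 25.2% of all genes were called higher and 20.5% lower. At day 6 LA lowered 14 and raised none, with a median log2FC of -0.30 against -0.01 over all genes. Here 9.38% of all genes were called lower. Nebulin (Neb), which runs along the thin filament, fell from 3118 to 2024 CPM (log2FC -0.62 ± 0.10 SE). Desmin (Des), the intermediate filament around the Z-disc, fell from 2556 to 1855 CPM (-0.46 ± 0.05 SE), and myopalladin (Mypn) from 52.6 to 38.8 CPM (-0.44 ± 0.07 SE). Des is also among the muscle markers above, so it enters both counts. Myot, which rose most in the course, was not among them (log2FC 0.05). With ANGPTL4 at day 6 none of the 21 was called by edgeR and 1 by DESeq2, while 8 had an unadjusted p under 0.05 in edgeR. EdgeR called 0.0231% of all genes in this comparison.

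**Figure D3:**
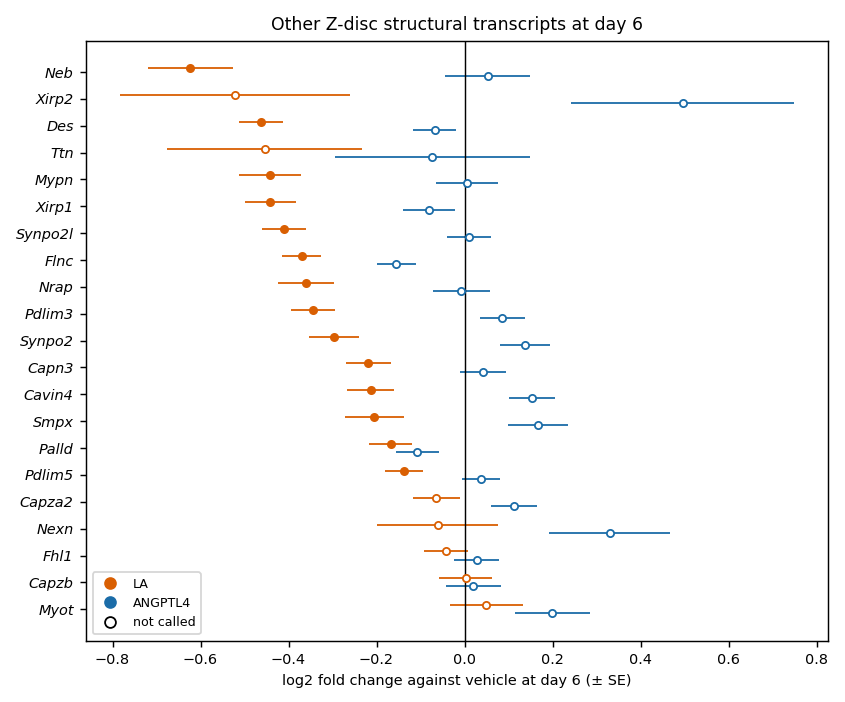
Log2 fold change against vehicle at day 6 (x axis, ± SE) of the 21 other Z-disc structural genes in the table, for LA and ANGPTL4, ordered by the LA value, with filled points for called genes. LA points run from -0.62 (Neb) to 0.05 (Myot) with 14 filled, and no ANGPTL4 point is filled.

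Small heat shock proteins and their partners, the family of Cryab, were followed in the same way. The counts of this paragraph stand beside 17.2% of all genes called at day 6 with LA, 9.38% lower. Of 10 genes, 2 were lower with LA at day 6 (Hspb2 and Hspb7, log2FC -0.52 and -0.45) and none higher. Of 13 genes of the stretch and YAP/TEAD response in the table, 3 were lower (Ankrd23, Tead4 at -0.37 ± 0.05 SE and Srf at -0.27 ± 0.06 SE) and 1 was higher (Fhl2, 0.32 ± 0.08 SE). Tead4 encodes a factor that binds M-CAT motifs and Srf the factor of CArG boxes. The YAP targets Ccn1 and Ccn2 were not called, but Ccn2 had an unadjusted p under 0.05 in edgeR, as did Tead1 and Wwtr1. Among 9 relatives of the members outside the muscle Z-disc, such as Actn1, Actn4 and Csrp1, 2 were lower (Pdlim4 and Pdlim7, both -0.29). Of 11 genes of signalling and protein turnover at the Z-disc, 4 were lower (Rcan1, Trim54, Trim55 and Trim63) and 1 was higher (Sqstm1, 0.17 ± 0.05 SE). Rcan1, a feedback inhibitor of calcineurin, had a log2FC of -0.29 ± 0.08 (SE), and leaving out any 1 of 3 single libraries ended the call. The call on Trim63 was lost under 12 of 17 alternatives, limma-voom and DESeq2 among them.

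At day 2, LA lowered Actn2 and raised Cryab, and the other 8 members were not called, where 15.1% of all genes were called, 8.27% higher and 6.82% lower. Actn2 held 121.4, 142.9, 122.0 and 136.8 CPM with LA and between 148.99 and 161.9 CPM with vehicle, so the groups did not overlap, as was so for 14.1% of all genes (log2FC -0.26 ± 0.07 SE, adjusted p = 0.0156 by edgeR). Cryab held 330.7, 338.6, 356.8 and 295.5 CPM with LA and 283.7, 320.2, 298.3 and 261.6 CPM with vehicle (log2FC 0.18 ± 0.06 SE, adjusted p = 0.0250 by edgeR). Neither was called without the libraries farthest from their groups, where the log2FC was -0.23 for Actn2 (adjusted p = 0.0946 by edgeR) and 0.15 for Cryab (adjusted p = 0.137 by edgeR). Over all alternatives the adjusted p of Cryab reached 0.171. The call on Actn2 was also lost without day 2 vehicle replicate 4 or day 2 LA replicate 3. That on Cryab was lost when the compared groups were fitted alone, and without vehicle replicate 1 or 4 or LA replicate 1, 2 or 3 of day 2. Tcap was at 17.8 ± 1.60 CPM (SD, n = 4) against 14.5 ± 1.58 CPM with vehicle and did not pass (log2FC 0.28 ± 0.11 SE, adjusted p = 0.0730 by edgeR).

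Of the 21 other Z-disc structural genes 4 were lower with LA at day 2 and none higher, beside the 6.82% of all genes called lower, namely Neb (log2FC -0.38 ± 0.10 SE), Nrap (-0.29 ± 0.06 SE), Mypn (-0.22 ± 0.07 SE) and palladin (Palld, -0.17 ± 0.05 SE). Of 10 small heat shock genes and partners, Hspb2 (0.53 ± 0.16 SE) and Hspb1 (0.46 ± 0.10 SE) were higher, beside 8.27% of all genes called higher. Cryab was higher too, but reads of Cryab and Hspb2 may mix, as their genes overlap. Without the libraries farthest from their groups the calls were lost on Neb (log2FC -0.29, adjusted p = 0.0543 by edgeR), Mypn (-0.21, 0.127), Palld (-0.15, 0.0886) and Hspb2 (0.41, 0.138). Of 17 alternatives, 8 of them with 1 library left out, 4 ended the call on Neb, 9 that on Mypn, 4 that on Palld and 6 that on Hspb2.

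With ANGPTL4 at day 2 no member was called by edgeR, limma-voom or DESeq2, and 3 (Csrp3, Ankrd1 and Actn2) had an unadjusted p under 0.05 in edgeR. In this comparison 9.82% of all genes were called. Actn2 held 140.6, 147.3, 140.8 and 121.8 CPM, all below the lowest vehicle library at 148.99 CPM (log2FC -0.19 ± 0.07 SE, adjusted p = 0.0978 by edgeR). Groups did not overlap for 14.6% of all genes in this comparison. Csrp3 had a log2FC of 0.21 ± 0.09 (SE) and Ankrd1 of 0.11 ± 0.05 (SE). LA and ANGPTL4 share the vehicle libraries, so their changes are not independent. Of the 21 other Z-disc structural genes, 2 were called with ANGPTL4, a share near the 9.82% of all genes called. These were titin (Ttn) and Neb, both lower (log2FC -1.02 ± 0.22 and -0.44 ± 0.10 SE). With LA at day 2 Ttn was not called but had an unadjusted p under 0.05 in edgeR. Of the 10 small heat shock genes and partners, Hspb1 alone was called with ANGPTL4, and was higher, again near the share of all genes called. Without the libraries farthest from their groups its log2FC was 0.30 and the call was lost (adjusted p = 0.0542 by edgeR). Between LA and ANGPTL4 at day 2 no member was called by any of the 3 tools, and 2 (Actn3 and Cryab) had an unadjusted p under 0.05 in edgeR. Here 0.0924% of all genes were called, which is 12 genes. Without the libraries farthest from their groups, day 2 LA replicate 3 among them, 236 genes were called and still no member.

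The ratio of Actn3 to Actn2 was higher in the ANGPTL4 libraries at day 2 (2.01 to 2.196 on the log2 scale) than in any vehicle library (1.85 to 1.88). With LA it ran from 1.86 to 2.22 and overlapped vehicle. No test was made of the ratio. At day 6 all 3 treatments lay between 1.27 and 1.63.

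**Figure D4:**
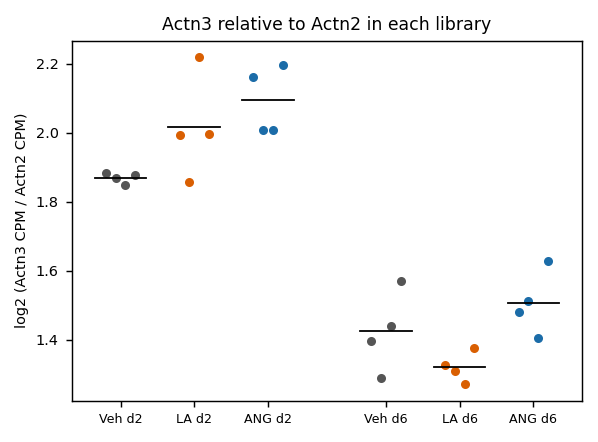
Log2 ratio of Actn3 to Actn2 CPM within each library (y axis) in the 6 groups (x axis), with points for libraries and a line for the mean. Day 2 libraries lie between 1.85 and 2.22 and day 6 libraries between 1.27 and 1.63.

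The effect of LA itself changed between day 2 and day 6. Tested as an interaction, it was lower at day 6 for 6 members, where 19.7% of all genes were called and 11.0% were called lower. The interaction log2FC was -0.91 ± 0.14 (SE) for Tcap, -0.63 ± 0.13 (SE) for Csrp3 and -0.58 ± 0.08 (SE) for Cryab. For Ankrd1 it was -0.43 ± 0.07 (SE), for Actn3 -0.33 ± 0.08 (SE) and for Myoz2 -0.31 ± 0.09 (SE). The call on Myoz2 was lost without day 2 vehicle replicate 1, day 2 LA replicate 3 or day 6 LA replicate 4. Actn2, which was lower with LA at both days, had an interaction of -0.08 ± 0.10 (SE, adjusted p = 0.609 by edgeR). Ankrd2 (-0.40 ± 0.17 SE), Myoz1 (-0.59 ± 0.30 SE) and Ldb3 (-0.16 ± 0.07 SE) did not pass either. For ANGPTL4 no member was called for such a change by edgeR, limma-voom or DESeq2, none had an unadjusted p under 0.05, and 0.277% of all genes were called.

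The course from day 2 to day 6 was also followed within each treatment, a comparison added after the values had been seen. With ANGPTL4, 9 members rose and none fell, where 42.2% of all genes were called and 22.4% were called higher. Ankrd2 had a log2FC of -0.04 ± 0.12 (SE) in this course. With LA, 7 rose and 2 fell, where 43.8% of all genes were called, 23.1% higher and 20.7% lower. Tcap rose with LA from 17.8 to 44.1 CPM (log2FC 1.32 ± 0.10 SE) and Myoz1 from 1.49 to 5.04 CPM (1.75 ± 0.19 SE). Csrp3 rose by 0.25 ± 0.09 (SE) on the log2 scale, a call lost without day 2 LA replicate 1, day 2 LA replicate 4 or day 6 LA replicate 3 (adjusted p up to 0.0726). Actn3 was nearly level, at 529.1 ± 36.4 CPM (SD, n = 4) on day 2 and 534.1 ± 30.9 CPM on day 6 (log2FC 0.01 ± 0.05 SE). Cryab went from 330.4 to 286.7 CPM (log2FC -0.21 ± 0.06 SE), the opposite direction from vehicle, and Ankrd2 from 49.4 to 29.3 CPM (-0.74 ± 0.12 SE).

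**Figure D5:**
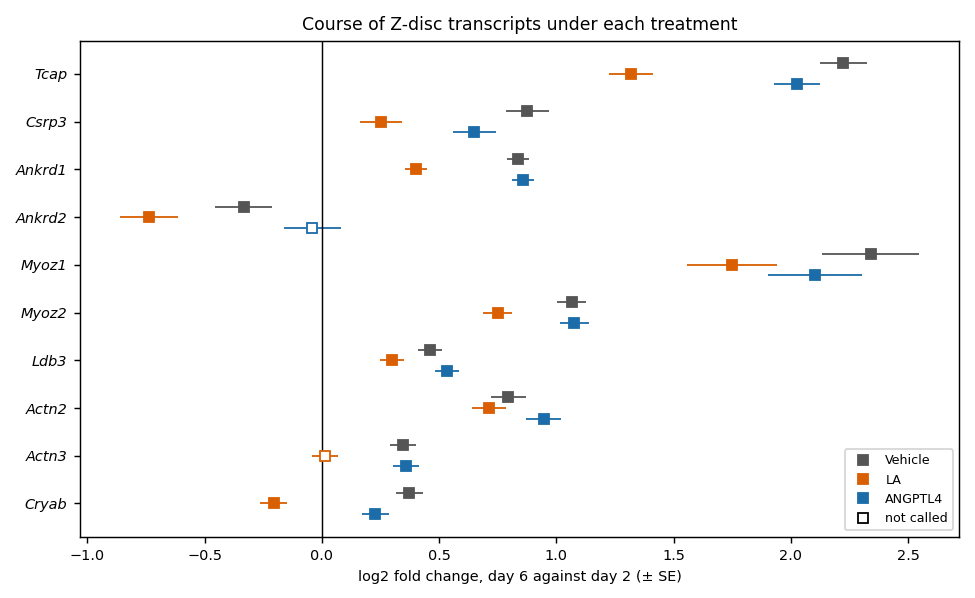
Log2 fold change of each Z-disc transcript from day 2 to day 6 (x axis, ± SE) with vehicle, LA or ANGPTL4, with filled points for called genes. Tcap lies at 2.22 with vehicle, 1.32 with LA and 2.03 with ANGPTL4, and Cryab lies at -0.21 with LA.

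Across the 6 groups, the nearest genes of each member were found by the root mean square difference of centred log2 CPM group means among 10601 genes. Tcap and Myoz1 shared Olfr805 and Sh3bgr among their 3 nearest. The members' own SD over the group means ran from 0.15 (Cryab) to 0.99 (Myoz1), the scale against which distances are read. Ankrd1 lay nearest to Tnnt1 (0.05), the slow troponin T, then Klhl41 and Tgm2. Myoz1 lay nearest to Casq1 (0.05), the calcium store protein of fast muscle, then Sh3bgr and Olfr805. Tcap lay nearest to Olfr805 (0.10), and among the members to Myoz1 (0.11). Csrp3 lay nearest to Klhl30, Myoz2 to H2bc4, Ldb3 to Dusp16, Actn2 to Fbxw7, Actn3 to Ctxn3 and Cryab to Coro6. Ankrd2 lay nearest to Egr2 (0.08), Actc1 (0.12) and Myh6 (0.12), and its closest fellow member, Cryab, ranked 4405 of the 10601 genes. The closest fellow member also ranked far down for Cryab (1166), Ldb3 (1035) and Actn3 (354). For the remaining members it ranked from 2 (Tcap) to 70 (Actn2). These distances rest on 6 group means and carry no test.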

How the data were processed

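C2C12 libraries were made from total RNA with a QuantSeq 3′ kit, per the labels' protocols. Trimmomatic, STAR 2.7.1a, HTSeq 0.9.1, DESeq2, DESeq and the build mm39 are named in the submitters' processing notes, with no order or settings. The authors deposited raw counts per gene symbol, with at least 51 counts for each gene summed over 24 libraries. Library totals were lowest in day 6 ANGPTL4 and highest in day 2 LA, and low genes such as Myoz1 are least precise.

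Counts were filtered with filterByExpr (1699 genes removed), TMM-scaled and fitted as 6 group means in edgeR 4.0.16 under R 4.3.3 (robust quasi-likelihood, 18 residual degrees of freedom), with Benjamini-Hochberg adjustment over 12994 genes. Log2 CPM used a prior count of 2. SEs are approximate, from the F statistic. No replicate pair agreed within sampling noise (chi-square per degree of freedom 1.55 to 19.6). The fit was also run on simulated data, and no result here rests on the outcome of that run. The members and lists were chosen with earlier results of these data known. Named are all members and, of each other list, up to 3 called genes with the largest changes per comparison. Others were named after their values were seen. Limma 3.58.1 (voom) and DESeq2 1.42.0 served as alternatives. The reference build differs from mm39, so it was used for promoter sequences and gene overlap only, and no coordinates of genes in the counts are given.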

Additional observations from a re-analysis of the deposited data

Results flagged for a closer look

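In 6 members the effect of LA differed between day 2 and day 6 by the interaction test. The difference, day 6 minus day 2 on the log2 scale, was -0.91 for Tcap, -0.63 for Csrp3, -0.58 for Cryab, -0.43 for Ankrd1, -0.33 for Actn3 and -0.31 for Myoz2. For Tcap, Csrp3, Cryab and Ankrd1 the log2FC was above 0 at day 2 and below 0 at day 6, and of the day 2 values only that of Cryab was called.

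A single library stood apart from the other 3 of its group in 3 of 60 sets of values checked, and chance flags about 1 in 20. Day 2 ANGPTL4 replicate 4 was low for Myoz2, with 52.9 CPM against 58.6 to 59.7 CPM in the others. The same library was low for Ldb3, with 162 CPM against 187 to 189 CPM. Day 6 ANGPTL4 replicate 2 was high for Actn3, with 816 CPM against 726 to 739 CPM. No member was called for ANGPTL4 against vehicle at day 6 when any single library was left out, and at day 2 at most 1 was called.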

How the results depend on the processing

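No called member result changed direction under any alternative, which were other scalings and filters, limma-voom, DESeq2, the compared groups alone, the replicate block, each library left out and the farthest libraries left out. The calls lost were on Ankrd2 (vehicle course and LA at day 6), Actn2 and Cryab (LA at day 2), Myoz2 (interaction) and Csrp3 (LA course). With LA at day 2 the 2 members called became 1 with the compared groups alone and 0 without the farthest libraries, an alternative chosen after seeing the data, as was scaling by library totals alone.

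With each library left out in turn, members called ranged from 9 to 10 (vehicle course), 0 to 2 (LA, day 2), 8 to 10 (LA, day 6), 0 to 1 (ANGPTL4, day 2), 9 to 10 (LA against ANGPTL4, day 6), 5 to 7 (interaction of LA) and 8 to 9 (LA course). Sign changes were limited to results that were not called. Actn3 in the LA course was -0.019 with library totals alone and from -0.035 to 0.049 with single libraries left out, Ankrd2 in the ANGPTL4 course from -0.17 to 0.025, and the interaction of Actn2 from -0.12 to 0.0041.

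Same-numbered libraries did not deviate together (r over 0.1 in 3 of 28 pairs, from -0.172 to 0.183), so numbers were not taken as pairs. With the replicate block 10, 2 and 9 members were called in the vehicle course and for LA at days 2 and 6.

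Counts over all genes moved by more than 1.5 times in some comparisons. For LA at day 2 the 1961 genes became 422 with the compared groups alone and 590 without the farthest libraries. For ANGPTL4 at day 2 the 1276 became 685 with the compared groups alone. For ANGPTL4 at day 6 the 3 became 87 with DESeq2, and for LA against ANGPTL4 at day 2 the 12 became 236 without the farthest libraries. The interaction of ANGPTL4 gave 36, 381 with DESeq2 and 0 with the replicate block. The cause was not tested. No scaling moved the median of all genes by over 0.1.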
